A study of Mus musculus with 6 samples.

Results

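The immune cells around a visible liver metastasis were compared with those around a liver metastasis too small to see, in mice bearing control tumour cells. The micrometastasis library (Ctrl, day 3) held 5106 cells and the macrometastasis library (Ctrl, day 12) held 4913 cells, chosen by the library tag of their barcodes. Together they made 10019 of the 23008 cells of the series. Both came from Balb/c mice injected into the heart with 4T07 cells, a mouse mammary tumour line, that carried a pLKO.1 vector with a scrambled sequence as control. A piece of liver of about 5 mm was taken, digested with collagenase III and DNase for 15 minutes, and sorted for CD45, the surface protein shared by blood-derived cells. Micrometastases were located by the bioluminescence of the tumour cells in the excised liver. RNA was read with the 10x Genomics 3′ method, which counts molecules of RNA by their unique molecular identifiers (UMIs). Each group was 1 library, a pool of 2 mice, so no test between groups was possible and no p-value is given. The size of the lesion, the day and the library changed together and cannot be told apart. Intervals are exact 95% intervals and cover counting error only.

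The compared features were the 1763 genes present in both deposited matrices with at least 100 UMIs over both libraries. The total UMIs were 55971463 in micrometastasis and 43459564 in macrometastasis, with medians of 7531 and 6300 per cell, and the compared features held 9.09% and 10.7% of them. The libraries shared 11 barcodes. Ptprc, the gene of CD45, was not analysed here, so the sort was checked only through cell classes. A level is given in UMIs of a gene per 1000000 UMIs of the library or class (CPM). A share is the percentage of cells with at least 1 UMI of a gene after each cell was thinned to 1500 UMIs, which no cell fell short of. A gene was counted as higher or lower past 2-fold in CPM. The deposited values were capped, which makes UMI sums too low for genes found in few cells. For such genes the CPM ratio errs high where the cap acts more in micrometastasis and low where it acts more in macrometastasis. The share after thinning is drawn from the same UMIs and can err the same way, while the share before thinning is not affected. Of the compared genes, 111 had over 5% of their positive cells at the cap in either library, among them 68 of those past 2-fold.

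The liver holds Kupffer cells, resident macrophages that sit in the sinusoids and clear particles, bacteria and dying cells from the blood. Sinusoidal endothelial cells line the same vessels. Injury and tumour cells draw in neutrophils and Ly6C-high monocytes from the bone marrow, and some monocytes turn into macrophages within the lesion. Neutrophils leave the marrow mature, and precursors that still make granule proteins or divide are rare in a tissue. Type I and type II interferons switch on a shared group of antiviral and antigen-presenting genes in nearly all of these cells.

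The class composition differed between the 2 libraries, most in macrophages and monocytes. Kupffer-like cells, which carried Clec4f, Vsig4 and Cd5l, made up 5.37% of micrometastasis cells (4.76% to 6.02%, 274 cells) and 16.3% of macrometastasis cells (15.3% to 17.4%, 803 cells). Monocyte-like cells went the other way, from 13.9% (12.9% to 14.9%) to 4.23% (3.69% to 4.83%). Lesion macrophage-like cells were at 8.17% and 4.48%. Their clusters differed, with cluster 13 holding 411 of 417 cells in micrometastasis and cluster 18 holding 186 of 220 in macrometastasis. Neutrophil precursor-like cells, which made granule proteases, were at 5.58% (4.97% to 6.25%) and 1.71% (1.37% to 2.11%). They were rich in RNA, with medians of 40897 and 41215 UMIs, so that they held 21.5% and 8.005% of all UMIs. Cluster 8, which no marker list named, was at 4.82% and 0.773%. Ltf, Ly6g and Cd177 were among its 10 genes of highest fold.

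Mature neutrophil-like cells were the largest class in both libraries, at 29.1% (27.9% to 30.4%) and 33.6% (32.2% to 34.9%). Their clusters were mostly different. Clusters 4 and 6 held 685 and 438 of the 1487 cells in micrometastasis and 15 and 23 of the 1649 in macrometastasis, whereas cluster 0 held 10 and 1373. Cluster 0 may be the macrometastasis libraries and not a type. Cluster 3 was present in both, with 354 and 238 cells.

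Lymphoid classes had nearer shares. B-like cells were at 12.7% and 12.2%, with overlapping intervals. T-like cells made up 8.4998% (7.75% to 9.30%) of the first library and 9.79% (8.97% to 10.7%) of the second, and NK or ILC1-like cells were at 3.43% and 3.75%. Dendritic cell-like cells were at 1.51% and 1.47% and cluster 14 at 2.78% and 3.48%. Progenitor-like cells, which are not a lymphoid class, were lower, at 1.94% (1.58% to 2.36%) and 1.06% (0.791% to 1.39%). The dendritic cell-like class was cluster 23 alone, with Siglech, Ccr9 and Bst2 among its 10 genes of highest fold. Those of cluster 14 included Naaa, H2-Aa and Clec9a, a gene of the dendritic cell marker list. The named class may thus not hold all dendritic cells. Basophil or mast-like cells numbered 34 and 6 (0.666% and 0.122%). Endothelial-like cells, which a CD45 sort should leave out, were at 1.53% (1.21% to 1.90%) and 7.04% (6.34% to 7.79%). A share depends on all other classes and on the sort. Fewer cells of a type in the tissue and fewer of them passing digestion and sort cannot be told apart here.

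The same contrast in mice with Tim3-KD tumour cells, whose libraries were separate, is set beside it. There Kupffer-like cells were at 4.96% and 16.99%, monocyte-like cells at 16.005% and 6.45%, precursor-like cells at 17.95% and 3.84% and endothelial-like cells at 0.739% and 2.42%. These 4 differences had the sign of the Ctrl pair. Lesion macrophage-like cells, at 2.74% and 4.42%, had the other sign, and B-like cells were at 1.36% and 9.41%. Within the lesion macrophage-like class, cluster 18 was at 0.118% and 3.79% in Ctrl and 1.83% and 3.56% in Tim3-KD mice. Cluster 13 was at 8.05% and 0.692% in Ctrl and 0.914% and 0.854% in Tim3-KD mice.

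**Figure D1:**
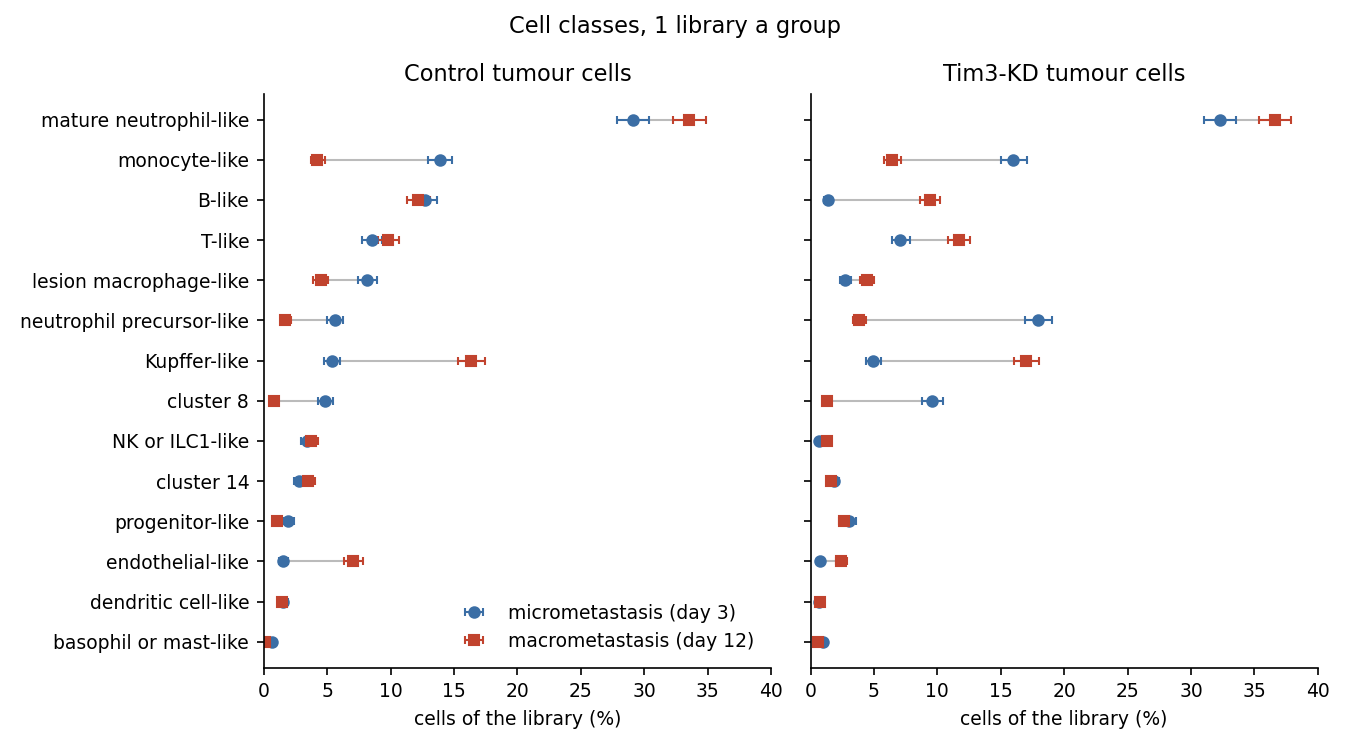
Share of sorted cells in each of 14 classes, in percent, for micrometastasis and macrometastasis, with Ctrl libraries in one panel and Tim3-KD libraries in the other. Points are 1 library each and bars are exact 95% binomial intervals. Kupffer-like cells lie at 5.37% and 16.3% and monocyte-like cells at 13.9% and 4.23% in Ctrl.

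Over whole libraries, 385 of the 1763 genes (21.8%) were higher in macrometastasis and 70 (3.97%) were lower. The median log2 ratio of all these genes was 0.54, and changes of gene groups are to be read against it. By the share of cells, over 1725 genes found in at least 1% of the cells of one library, 250 (14.5%) had a share at least 2-fold higher and 66 (3.83%) at least 2-fold lower. Of these, 240 and 51 were also past 2-fold in CPM. When the macrometastasis levels were averaged with the class composition of micrometastasis, 63 genes (3.57%) were higher and 27 (1.53%) lower, and the median was 0.14. Of the 385 and 70 genes, 56 and 21 were among them.

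Kupffer cell genes were higher together in macrometastasis. Of 31 genes of Kupffer cell identity and clearance, 27 were higher and 0 lower, with a median log2 ratio of 1.65. Clec4f, the C-type lectin that defines the Kupffer cell of the mouse, had a UMI in 5.99% of micrometastasis cells (5.36% to 6.68%) and 19.4% of macrometastasis cells (18.3% to 20.6%). Cd5l, a secreted scavenger protein, was at 5.90% and 18.7%, and Vsig4, the complement receptor of the immunoglobulin family, at 5.31% and 16.6%. Mertk, the receptor kinase for clearing dying cells, had the highest log2 ratio of the list (3.16). It was found in 2.47% of cells (2.06% to 2.93%) and 14.7% (13.7% to 15.7%), at 17.1 and 153 CPM. At the micrometastasis class composition the median of the list was 0.13, with 2 genes higher and 1 lower. Complement genes, of which Kupffer cells make C1q, had 8 of 12 higher and 0 lower with a median of 1.63 (0.15 at the micrometastasis composition). C1qa was at 7.38% and 21.1% of cells.

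Endothelial genes were higher as well. Of 22 genes of liver sinusoidal endothelium, 20 were higher and 0 lower, with a median of 2.85 that was 0.40 at the micrometastasis composition. Kdr, the main VEGF receptor, was found in 1.61% of cells (1.28% to 1.99%) and 7.41% (6.69% to 8.18%). Bmp2, a signal of these cells that sets hepcidin in hepatocytes, was at 1.31% and 6.64%, and Flt4, another VEGF receptor, at 1.08% and 5.05%. Adamts1, a secreted metalloprotease, and Timp3, a metalloprotease inhibitor, had the highest CPM ratios of all genes (15.1 and 13.97). Their shares were 0.783% and 3.91% of cells for Adamts1 and 0.627% and 3.34% for Timp3. In micrometastasis, 40.3% and 37.9% of their positive cells were at the cap and in macrometastasis 0%, so the CPM ratios are upper limits. Before thinning, where the cap has no effect, the shares were 1.31% and 5.80% for Adamts1 and 1.29% and 5.50% for Timp3.

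Granule and cell division genes were lower. Of 10 genes of azurophil granules and promyelocytes, 0 were higher and 8 lower, with a median of -1.52 (-0.18 at the micrometastasis composition). Elane, neutrophil elastase, was found in 5.72% of cells (5.10% to 6.39%) and 1.49% (1.17% to 1.86%), at 1118 and 362 CPM. Mpo, myeloperoxidase, was at 6.11% and 1.67%, and Ms4a3, a marker of granulocyte and monocyte precursors, at 5.07% and 1.22%. Of 6 secondary and tertiary granule genes 2 were lower (median -0.89, and -0.52 with 1 lower at the micrometastasis composition). Ltf, lactoferrin, was at 11.4% and 5.17% and Ly6g, the surface marker of mouse neutrophils, at 12.9% and 4.78%. Of 18 genes of mitosis and DNA replication, 14 were lower and 0 higher (median -1.18), whereas at the micrometastasis composition 0 were lower (median -0.31). Rrm2, a subunit of ribonucleotide reductase, was at 3.98% and 0.896%, Pclaf, which binds the replication clamp, at 5.78% and 1.77%, and Top2a, topoisomerase II, at 4.15% and 1.51%.

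Of 19 monocyte genes 10 were lower and 2 higher, with a median of -1.16. At the micrometastasis composition 0 of them were past 2-fold in either direction (median -0.35). Ccr2, the receptor by which monocytes leave the marrow, was found in 18.8% of cells (17.8% to 19.9%) and 7.02% (6.32% to 7.77%). F13a1, a clotting factor made by monocytes, was at 9.83% and 2.56%, and Ms4a4c at 15.6% and 5.78%. The 2 that were higher were Csf1r and Treml4. Treml4, a marker of Ly6C-low monocytes that macrophages also carry, was at 2.98% and 6.70% of cells, while Ly6c2, of the Ly6C-high kind, was at 17.6% and 7.35%. Arg1, arginase 1, was found in 1.74% of cells (1.40% to 2.14%) and 0.204% (0.0976% to 0.374%). The basophil proteases Mcpt8, at 0.862% and 0.0611% of cells, and Prss34, at 0.490% and 0%, had the lowest ratios. For Prss34, the interval of 0 in 4913 cells reached 0.0751%. Before thinning Prss34 was found in 1.06% and 0.0611% of cells. Of 6 basophil and mast cell genes, 3 were lower (median -1.57), and 2 at the micrometastasis composition (median -0.54).

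Among signals between cells, Il10, the gene of a cytokine that damps inflammation, was found in 0.470% of cells (0.301% to 0.699%) and 1.91% (1.55% to 2.34%). Il1a, the interleukin 1 alpha gene, was at 1.94% and 7.27%. Prok2, a secreted attractant of myeloid cells, was at 10.1% and 3.66% and Osm, the interleukin 6-type cytokine oncostatin M, at 11.3% and 4.97%. Of 15 cytokines and mediators 3 were higher and 2 lower. Of 17 chemokines 6 were higher and 1 lower (3 and 1 at the micrometastasis composition), with Cxcl9 and Cxcl10, the interferon-induced attractants of T cells, at 0.431% and 2.26% and at 2.51% and 5.96% of cells. Cxcl13, which attracts B cells, was at 1.10% and 3.79% and Pf4, platelet factor 4, at 0.999% and 3.44%. Ccl9, a chemokine of myeloid cells, was lower, at 14.9% and 6.05%. Il1b and Cd274 were not compared here.

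Most other lists lay within the shift of all genes. The median was 0.08 for 18 B cell genes (1 higher, 1 lower), 0.02 for 7 immunoglobulin genes (0 and 0), 0.54 for 17 T cell identity genes (2 higher) and 0.81 for 9 genes of naive and recirculating T cells (3 higher). It was 0.39 for 12 cytotoxic genes (1 lower), 0.72 for 11 NK receptors (0), 0.40 for 5 checkpoint genes (0), 0.47 for 10 regulatory and costimulatory T cell genes (2 higher) and 0.58 for 3 genes of gamma-delta T cells (1 higher). Effector genes were found at close shares, with Gzmb (granzyme B) at 4.88% and 4.48% of cells, Prf1 (perforin) at 3.37% and 3.87% and Ifng (interferon gamma) at 2.80% and 2.89%, all with overlapping intervals. Havcr2, the gene of TIM3, was at 2.15% (1.77% to 2.59%) and 1.24% (0.951% to 1.59%) of cells and at 15.6 and 12.7 CPM. Class II genes of the MHC had a median of 0.48 with 0 of 8 past 2-fold, and 34 interferon-stimulated genes a median of 0.30 with 8 higher and 0 lower. Under trimmed-mean scaling, which sets the average gene to no change, the medians were -0.24 for the interferon list, -0.06 for class II, -0.46 for B cell, -0.52 for immunoglobulin, -0.15 for cytotoxic, -0.14 for checkpoint and -0.07 for regulatory T cell genes.

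The remaining lists were small or mixed. Neutrophil receptors had a median of 0.36 (0 of 10 past 2-fold), chemokine receptors 0.47 (1 higher and 1 lower of 14), dendritic cell genes 0.35 (1 higher of 13) and stefin A genes -0.45 (1 lower of 8). Matrix and clotting genes were at -0.05 (3 higher and 3 lower of 13), lesion macrophage and lysosome genes at 0.58 (6 higher and 2 lower of 16), hypoxia and glycolysis genes at -0.05 (1 higher of 10), solute carriers at 0.31 (2 higher of 7) and acute phase genes at 0.48 (1 higher of 4). Under trimmed-mean scaling the sign turned for neutrophil receptors (-0.18), chemokine receptors (-0.07), dendritic cell genes (-0.19), solute carriers (-0.23), acute phase genes (-0.06) and cytokines (-0.48). No haemoglobin gene and none of the 6 epithelial or tumour markers was among the compared features.

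**Figure D2:**
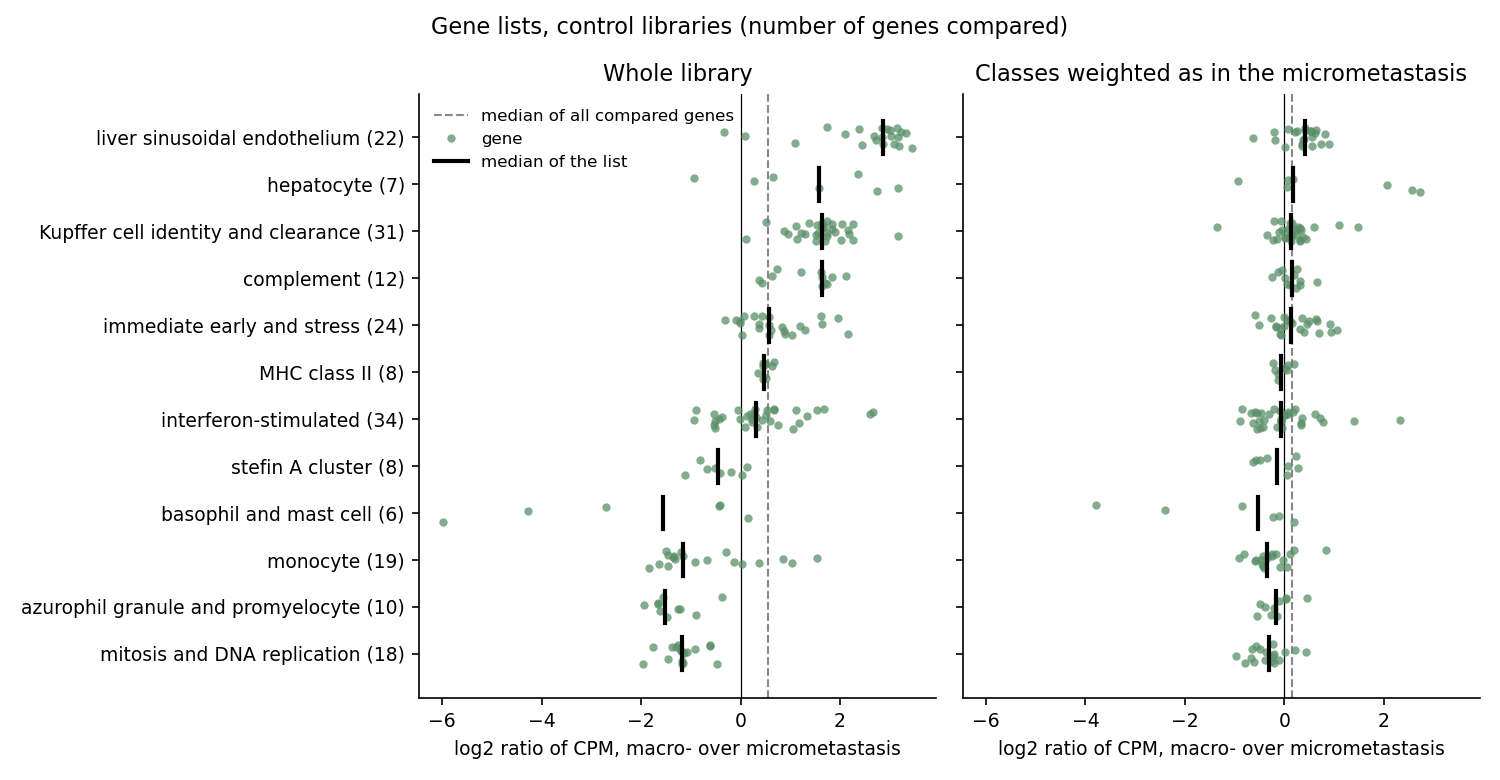
Log2 ratio of macrometastasis over micrometastasis in Ctrl for the genes of 12 lists, over whole libraries and with macrometastasis averaged at the class composition of micrometastasis. Each point is a gene, black bars are list medians and the dashed line is the median of all 1763 genes. The Kupffer cell list has a median of 1.65 over whole libraries and 0.13 at the micrometastasis composition.

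Within mature neutrophil-like cells, many genes differed between the libraries. Of 1100 genes, 249 (22.6%) were higher in macrometastasis and 80 (7.27%) lower, with a median log2 ratio of 0.47. These cells lay in clusters 4, 6 and 3 in micrometastasis and mostly in cluster 0 in macrometastasis. Sequences before the start of a few genes are shown first, from 3 groups described for these cells (metallothionein, interferon-stimulated and heat shock genes), because a short motif is known for each group. The 250 bases before the RefSeq start of each gene (build GRCm38.p6) are written in the direction of the gene, with motif letters in capitals.

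For metallothioneins, which bind zinc and copper, the motifs searched were TGCACNC and TGCGCNC, cores of the metal response element, on both strands:
Mt1, chr8:94178839-94179088, plus strand: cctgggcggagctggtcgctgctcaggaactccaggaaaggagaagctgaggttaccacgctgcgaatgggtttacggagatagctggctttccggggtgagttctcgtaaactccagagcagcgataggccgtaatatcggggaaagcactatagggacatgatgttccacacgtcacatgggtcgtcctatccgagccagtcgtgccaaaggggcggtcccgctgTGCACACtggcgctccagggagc
Mt2, chr8:94172368-94172617, plus strand: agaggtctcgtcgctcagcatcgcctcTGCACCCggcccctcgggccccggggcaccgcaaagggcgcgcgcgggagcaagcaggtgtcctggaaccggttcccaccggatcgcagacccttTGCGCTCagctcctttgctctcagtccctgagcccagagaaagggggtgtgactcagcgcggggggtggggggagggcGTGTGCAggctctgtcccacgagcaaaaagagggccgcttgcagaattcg

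Mt1 held 1 match and Mt2 held 3. Of 32851 promoters of this length, 21.4% held at least 1 match and 1.26% at least 3.

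For interferon-stimulated genes the motif was GAAANNGAAA, the core of the interferon-stimulated response element, on both strands:
Isg15, chr4:156200819-156201068, minus strand: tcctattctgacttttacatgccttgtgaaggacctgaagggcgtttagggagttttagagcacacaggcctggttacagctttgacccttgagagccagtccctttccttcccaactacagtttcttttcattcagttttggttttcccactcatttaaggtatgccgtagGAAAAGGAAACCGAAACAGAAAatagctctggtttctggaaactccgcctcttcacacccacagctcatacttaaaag
Cxcl10, chr5:92348890-92349139, minus strand: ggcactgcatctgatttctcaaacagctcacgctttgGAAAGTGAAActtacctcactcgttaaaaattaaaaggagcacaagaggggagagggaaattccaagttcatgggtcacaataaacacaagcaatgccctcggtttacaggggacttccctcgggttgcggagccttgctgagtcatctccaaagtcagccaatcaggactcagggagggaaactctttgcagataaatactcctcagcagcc

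Isg15 held 3 overlapping matches, from base -78 to base -57 counted from the start, and Cxcl10 held 1, from -213 to -204. Cxcl10 did not share the lower level of Isg15 in mature neutrophil-like cells, with log2 ratios of 0.07 and -1.49. The motif was found in 2.98% of all promoters and in 18 of the 34 promoters of the interferon list (52.9%). Oasl2 and Slfn4, also of the list, had no match in this window. For heat shock genes the motif was GAANNTTC, part of the heat shock element, present in 6.69% of all promoters:
Hspa1a, chr17:34972157-34972406, minus strand: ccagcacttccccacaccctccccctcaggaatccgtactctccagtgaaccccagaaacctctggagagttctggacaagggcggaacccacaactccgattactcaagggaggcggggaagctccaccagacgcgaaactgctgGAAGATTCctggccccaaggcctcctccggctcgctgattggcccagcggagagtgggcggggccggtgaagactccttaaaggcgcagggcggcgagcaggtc

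The metallothionein gene Mt1 had the largest change of share in mature neutrophil-like cells among the genes plotted for this class. It was found in 12.5% of these cells in micrometastasis (10.9% to 14.3%) and 62.7% in macrometastasis (60.3% to 65.0%), with a CPM ratio of 13.1 (12.3 to 13.9). In Tim3-KD mice the shares were 13.3% and 45.6%. Mt2, its neighbour on chromosome 8, was at 0.134% and 3.15%. The Mt1 difference was not seen in every class, since Mt1 was at 46.7% and 37.1% of Kupffer-like cells and 32.6% and 21.2% of monocyte-like cells.

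Further genes were higher in these neutrophils. Arrdc4, an arrestin-domain protein that limits glucose uptake, was found in 4.44% of cells (3.45% to 5.61%) and 33.2% (31.0% to 35.6%), and in Tim3-KD mice in 1.39% and 15.4%. Hilpda, which holds fat in lipid droplets and is induced by low oxygen, was at 14.6% and 40.4% (8.67% and 34.7% in Tim3-KD mice). Ccl3, a chemokine that attracts monocytes and T cells, was at 14.3% and 39.96% (12.6% and 32.9%). Csf1, the growth factor of macrophages, was at 22.1% and 38.5% (22.7% and 36.5%). For these 4 genes both pairs of libraries had the same sign. F10, coagulation factor X, was at 0.941% and 9.58%, and Lmna, the nuclear lamin A, at 0.471% and 5.15%. Ctsl, a lysosomal protease, was at 27.4% and 59.4%. Tnf, the tumour necrosis factor gene, was at 10.1% and 19.5% in Ctrl but with the other sign in Tim3-KD mice, at 16.02% and 12.2%.

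The interferon-stimulated genes were lower in these neutrophils. Of 26 measured genes of the list, 21 were lower and 0 higher, and 25 lay below 0, with a median of -1.34. Isg15, a ubiquitin-like protein, was found in 44.8% of cells (42.2% to 47.4%) and 15.7% (13.98% to 17.6%). Ifi27l2a was at 45.9% and 12.6%, Slfn1 at 59.8% and 31.2% and Ifit1, which binds foreign RNA, at 9.15% and 2.85%. Oasl2, of the 2′-5′ oligoadenylate synthetase family, was at 9.48% and 1.21%. In Tim3-KD mice the list had 0 genes past 2-fold in either direction and a median of -0.24, with Isg15 at 41.7% and 32.1% and Oasl2 at 8.80% and 6.45%. Whether the pairs differ was not tested. The mix of clusters differed too, and the clusters were built from these same genes. Within cluster 3, the one present in both Ctrl libraries, Isg15 was at 63.6% and 55.9%, Ifi27l2a at 60.5% and 42.9%, Slfn4 at 55.9% and 52.9% and Oasl2 at 15.3% and 3.78%. In cluster 0 of macrometastasis Isg15 was at 6.85% and Ifi27l2a at 6.41%. Mt1 and Arrdc4 were higher also within cluster 3, at 11.6% and 42.9% and at 6.21% and 28.6%. In CPM, F10, Lmna, Hilpda and Ctsl also stayed past 2-fold there, with log2 ratios of 2.59, 2.40, 1.54 and 1.27. Ccl3 and Tnf did not, since their log2 ratios were 1.40 and 1.38 in the class but 0.30 and 0.42 in cluster 3. Csf1, at 0.70 in the class, was at -0.16 in cluster 3.

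Receptor and granule lists lay below the median of all genes in mature neutrophil-like cells (0.47), where 7.27% of genes were lower. Of 10 neutrophil receptors 0 were past 2-fold (median 0.20), of 6 secondary and tertiary granule genes 1 was lower and 0 higher (median -0.25), and of 6 azurophil genes 3 were lower and 0 higher (median -0.86). Cxcr2, the chemokine receptor of circulating neutrophils, was found in 74.2% of cells (Ctrl micrometastasis) and 45.7% (Ctrl macrometastasis), but in Tim3-KD mice in 59.8% and 61.0%. Prok2 was at 30.1% and 8.79%, Ly6g at 26.6% and 13.6% and Csta2, a stefin A protease inhibitor, at 28.6% and 11.2%. Of 8 stefin A genes 5 were lower and 0 higher, with a median of -1.03. Within cluster 3 Prok2 was at 11.3% and 10.5% of cells and Cxcr2 at 78.0% and 70.6%. In CPM, Prok2 was still past 2-fold lower in cluster 3 (log2 ratio -1.11), as were Ly6g (-1.23) and Snai1 (-1.11), while Cxcr2 was at -0.33. Snai1, a transcription factor, was at 7.60% and 1.09%, but at 1.39% and 3.08% in Tim3-KD mice. Il1r2, the decoy receptor of interleukin 1, at 86.6% and 90.9%, Trem1, an activating receptor, at 82.8% and 88.6%, and Mmp9, a gelatinase, at 56.6% and 51.7%, were found at nearer shares. Genes of other cells were also more often found in macrometastasis neutrophils, with Alb at 1.95% and 10.7% and C1qa at 1.01% and 2.73%, and their part in these results was not tested.

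**Figure D3:**
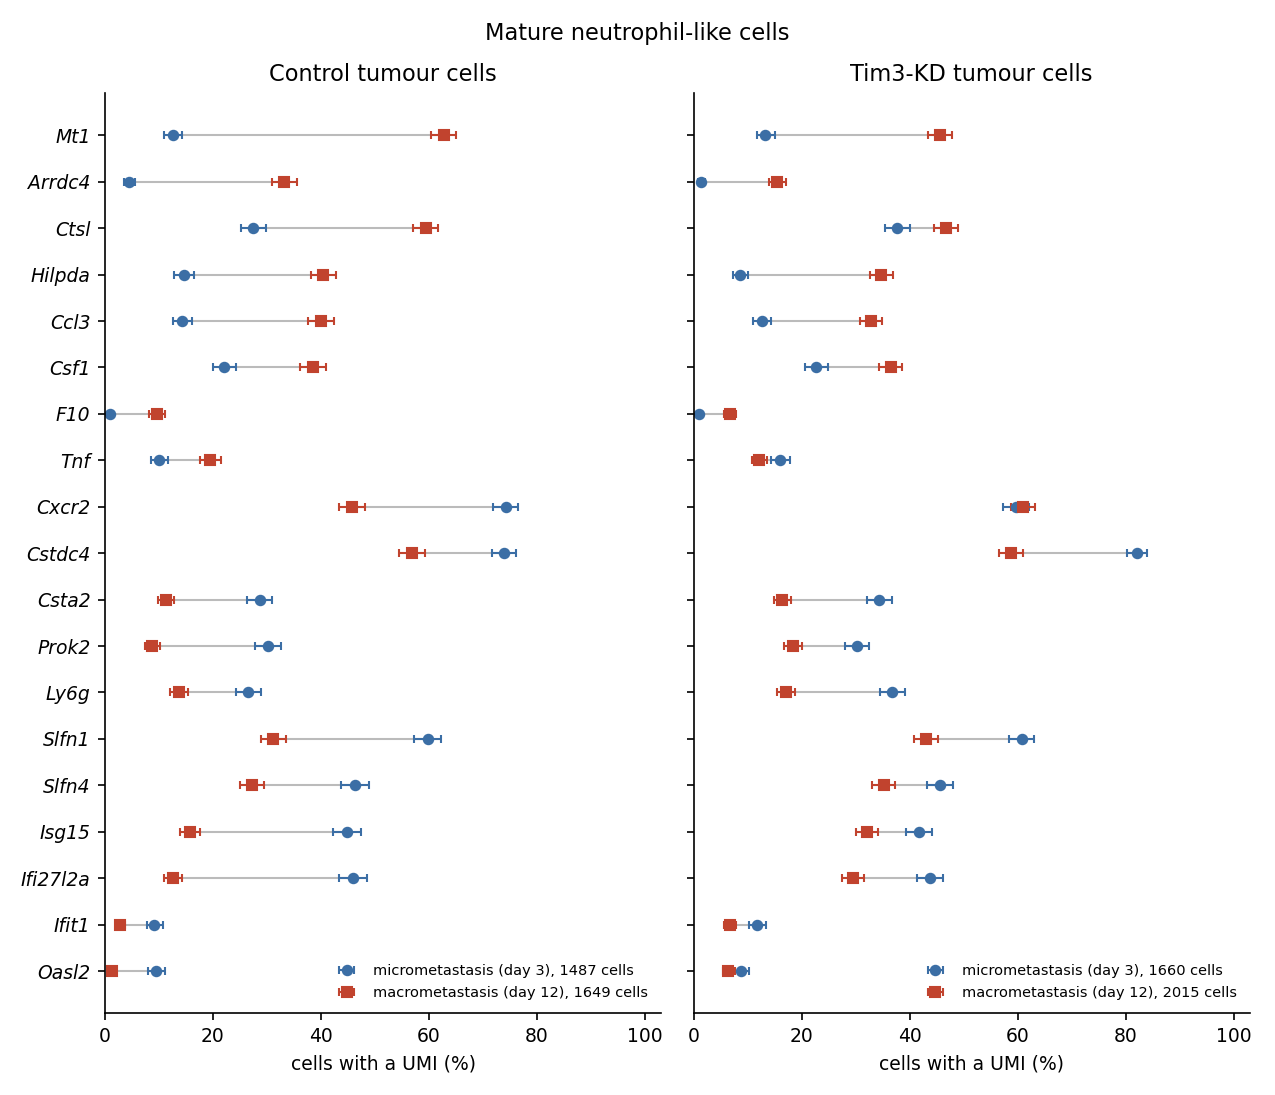
Share of mature neutrophil-like cells with a UMI of 19 genes, in percent after thinning, in micrometastasis and macrometastasis, with Ctrl and Tim3-KD libraries in separate panels. Each point is 1 library. Mt1 lies at 12.5% and 62.7% and Isg15 at 44.8% and 15.7% in Ctrl.

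Monocyte-like cells had interferon-stimulated genes on the other side. Of 29 measured genes of the list, 11 were higher and 0 lower and all 29 lay above 0, with a median of 0.81 against 0.34 for all 992 genes of the class, of which 129 (13%) were higher and 49 (4.94%) lower. Cxcl9 was found in 0.282% of the 709 cells of micrometastasis (0.0342% to 1.02%) and 3.37% of the 208 of macrometastasis, and Cxcl10 in 1.83% (0.980% to 3.12%) and 5.29% (2.67% to 9.27%). Isg15 was at 20.7% and 28.8%. In Tim3-KD mice 5 of the list were higher and 0 lower (median 0.73). Cluster 5 held 609 and 152 of the monocyte-like cells. Within it Cxcl9 was at 0.328% and 5.26%, Cxcl10 at 2.63% and 6.58% and Isg15 at 23.8% and 34.9%.

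Other monocyte genes differed together with the mix of clusters, whose part in these differences was not tested. Fabp4, a fatty acid carrier, was at 0.282% and 8.65%, Cd36, a scavenger receptor, at 0.423% and 9.13%, and Treml4 at 2.26% and 18.8%. Cluster 25, with 3 and 49 cells, was nearly all of macrometastasis. Cd36, Fabp4 and Treml4 were among its 10 genes of highest fold. Azurophil genes were lower in 9 of 9 (median -2.42), with Elane in 5.08% (3.58% to 6.96%) and 0% (0% to 1.76%) of cells and Ctsg, cathepsin G, in 5.50% and 0.481%. Genes of mitosis and replication were lower in 10 of 18 and higher in 1 (median -1.07), with Pclaf at 9.03% and 1.44%. Cluster 10 of this class, with Pclaf among its 10 genes of highest fold, had 97 cells in micrometastasis and 7 in macrometastasis. Ccr2 was at 73.1% and 57.7%.

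The interferon list thus had both signs within one pair of libraries. In Kupffer-like cells 1 of 31 genes was higher and 0 lower, with 29 above 0 (median 0.43 against 0.08 for all genes of the class). In lesion macrophage-like cells 9 of 21 were lower (median -0.74), in T-like cells 0 of 15 were past 2-fold (median -0.19) and in B-like cells 0 of 5 (median -0.29). Over whole libraries the list was close to the median of all genes, as given above. Iigp1, an interferon-induced GTPase, was found most often in endothelial-like cells, at 39.7% and 50.9%, and Cxcl10 in 42.3% and 46.8% of them.

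**Figure D4:**
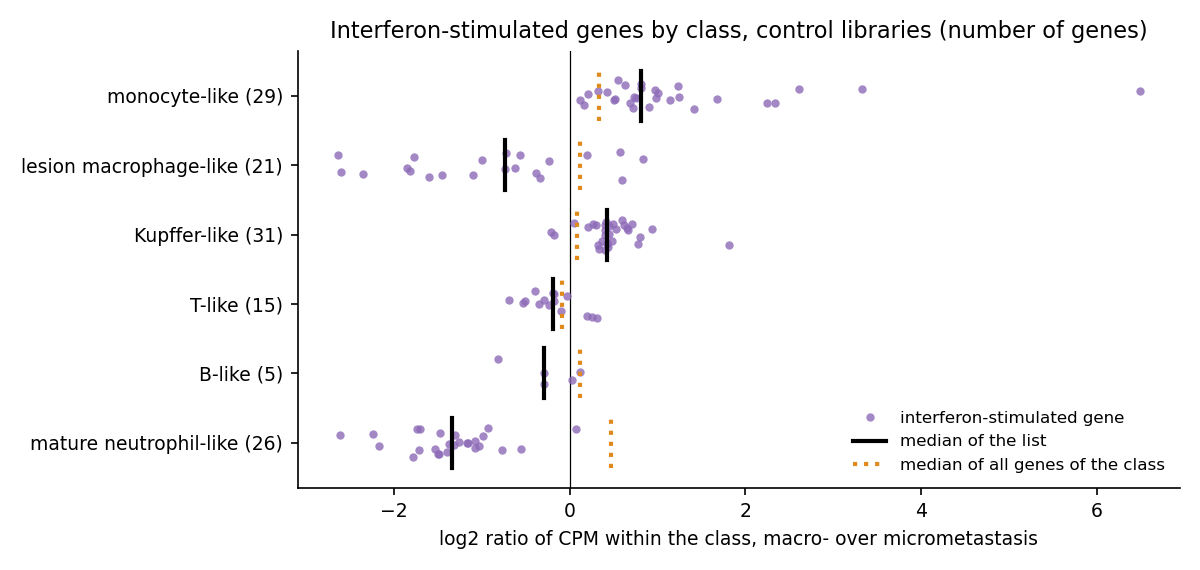
Log2 ratio of macrometastasis over micrometastasis in Ctrl for interferon-stimulated genes within 6 classes. Each point is a gene with at least 100 UMIs in the class, the black bar is the list median and the orange dotted line the median of all genes of the class. The list median is 0.81 in monocyte-like cells and -1.34 in mature neutrophil-like cells.

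Kupffer-like cells had close levels of their identity genes, while a few receptors and cytokines differed. Of 1024 genes, 18 (1.76%) were higher and 17 (1.66%) lower, with a median of 0.08. Of the 31 identity and clearance genes 1 was higher and 1 lower (median -0.14). Clec4f was found in 99.6% and 100% of cells, C1qa in 100% and 99.9%, Vsig4 in 90.9% and 91.2% and Timd4, a receptor for phosphatidylserine, in 56.2% and 62.6%. The gene that was higher was Mertk, at 31.4% (25.9% to 37.2%) and 68.0% (64.6% to 71.2%), and the gene that was lower was Marco, a scavenger receptor for bacteria, at 36.1% and 13.1%. Axl, a receptor of the same family as Mertk, was at 48.9% in both. In cluster 1 alone, which held 213 and 738 of the cells, Mertk was at 41.8% and 65.4% and Marco at 30.5% and 12.9%. Class and cluster shares came from separate random thinnings, so small gaps between them can come from the draw. In CPM, which needs no thinning, the log2 ratio in the class and in cluster 1 was 1.29 and 1.14 for Mertk. For Marco it was -2.04 and -1.93.

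The Tim3-KD pair did not share all of this. Mertk was there at 72.5% and 31.9%, the opposite sign, while Marco was at 60.8% and 28.8%, the same sign. The mix of clusters moved differently in the 2 pairs. Cluster 21, the other cluster of this class, held 61 of 274 and 65 of 803 cells in Ctrl. In Tim3-KD mice it held 4 of 255 and 182 of 935, and its part in the opposite signs was not tested. Il10 was at 3.28% and 9.22% of Kupffer-like cells in Ctrl and at 9.80% and 5.56% in Tim3-KD mice. H2-Aa, a class II chain that presents antigen, was at 78.1% and 95.8% in Ctrl and 90.6% and 80.0% in Tim3-KD mice. Of 6 class II genes 0 were past 2-fold and all 6 lay above 0 in Ctrl (median 0.80). Jun, a subunit of AP-1 that is induced within minutes of stress, was at 59.5% and 83.8% in Ctrl and 78.8% and 56.6% in Tim3-KD mice. Jun had the sign of Mertk, Il10 and H2-Aa in both pairs, and the part of stress genes in these differences was not tested.

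Some genes were lower in Kupffer-like cells of macrometastasis. Ccl9 was at 16.4% and 4.36% in Ctrl and 32.5% and 9.41% in Tim3-KD mice. Ttc39c was at 10.2% and 1.37% in Ctrl and 20.4% and 5.24% in Tim3-KD mice, so that both were lower in each pair. Ddit4, an inhibitor of mTOR signalling, was at 9.12% and 0.623% in Ctrl. Mmp12, macrophage elastase, was at 6.93% and 1.25% in Ctrl, with a CPM ratio of the other sign in Tim3-KD mice. Hmox1, which breaks down haem, was at 72.3% and 55.9%. Alb was found in 17.2% (12.9% to 22.1%) and 21.4% (18.6% to 24.4%) of Kupffer-like cells.

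**Figure D5:**
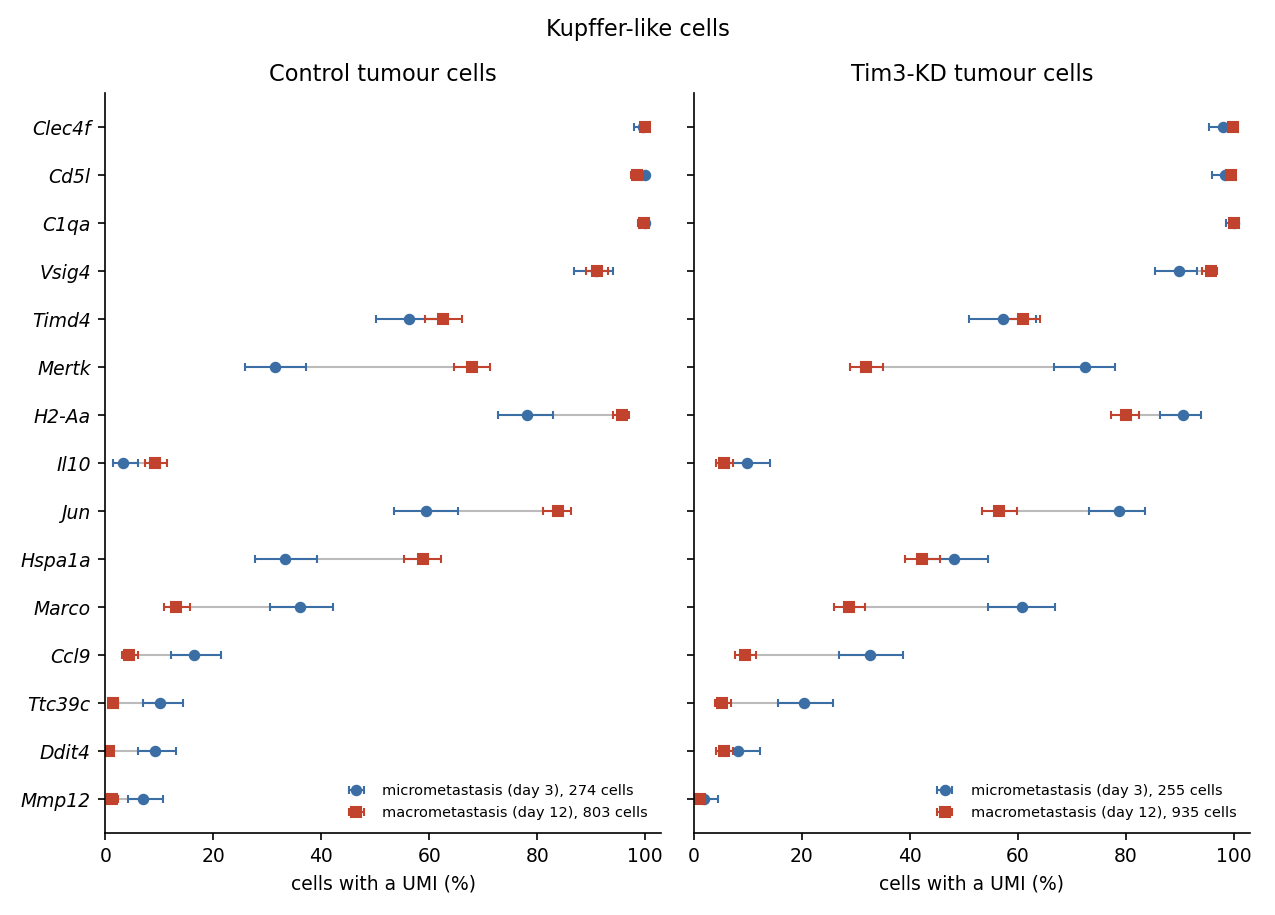
Share of Kupffer-like cells with a UMI of 15 genes, in percent after thinning, in micrometastasis and macrometastasis, with Ctrl and Tim3-KD libraries in separate panels. Each point is 1 library. In Ctrl Mertk lies at 31.4% and 68.0% and Marco at 36.1% and 13.1%, while Clec4f lies at 99.6% and 100%.

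Lesion macrophage-like cells were of different clusters in the 2 libraries, so their values compare cluster 13 of micrometastasis with cluster 18 of macrometastasis, which were told apart by these same genes. Of 860 genes 163 (19%) were higher and 136 (15.8%) lower, with a median of 0.12. Spp1, osteopontin, was found in 18.7% and 3.64% of cells, Arg1 in 20.1% and 4.09% and Trem2, a lipid receptor of macrophages, in 32.4% and 11.8%. Genes of Kupffer cells were higher, with 19 of 29 higher and 2 lower (median 1.73). Among them Vsig4 was at 0.480% and 20.0%, Cd163, the haemoglobin receptor, at 0.240% and 16.4% and Cd5l at 0.959% and 25.9%. All 6 class II genes were lower (median -1.58). Alb was at 2.40% and 32.3%, and its part in the other differences was not tested.

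B-like cells differed in cell division. Of 774 genes 19 (2.45%) were higher and 32 (4.13%) lower, with a median of 0.12. Of 12 genes of mitosis and replication 11 were lower and 0 higher, with a median of -3.97. Pclaf had 426 UMIs in 649 cells of micrometastasis and 1 UMI in 599 cells of macrometastasis, Mki67, the marker of dividing cells, had 153 and 2 and Top2a had 257 and 17. Most of these UMIs came from cluster 22, which held 137 and 22 of the B-like cells and 374 of the 426 Pclaf UMIs. In cluster 2, with 512 and 577 cells, Pclaf had 52 and 1 UMIs. Vpreb3, a gene of B cell precursors, was at 35.0% (31.3% to 38.8%) and 26.4% (22.9% to 30.1%) of cells. At Leiden resolutions 0.5 and 2 a B-like cluster of 30 cells had Vpreb3 as its gene of highest fold and a median of 15262 UMIs. It held 13 cells of Ctrl micrometastasis and 0 of Ctrl macrometastasis, and its part in the division genes was not tested. In Tim3-KD mice, where micrometastasis held 70 B-like cells, 5 of the 12 were higher and 1 lower (median 0.23). Jun was at 24.2% and 48.2% of Ctrl B-like cells.

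T-like cells had few differences past 2-fold. Of 806 genes 24 (2.98%) were higher and 4 (0.496%) lower, with a median of -0.08. The genes of highest ratio included Ms4a1, the CD20 gene of B cells, and the immunoglobulin light chains Iglc1 and Iglc2, with Fcmr and Arrdc4. Igkc, which T cells lack, was found in 2.995% (1.604% to 5.07%) and 8.73% (6.37% to 11.6%) of T-like cells, and in 1.46% and 1.49% of Kupffer-like cells. Of 6 immunoglobulin genes measured in T-like cells 5 were higher, and of 6 B cell genes 5, and the part of B cell RNA in them was not tested. Cytotoxic genes lay below 0 in 11 of 11, with 0 past 2-fold and a median of -0.55. Gzmb was at 23.5% (19.6% to 27.8%) and 15.2% (12.1% to 18.7%), Prf1 at 10.8% and 7.69%, Ifng at 22.4% and 17.7% and Havcr2 at 2.30% and 0.624%. In Tim3-KD mice 5 of the 11 were lower (median -0.91). The mix of clusters in the T-like class differed as well. Cluster 9, with Lef1, Il7r and Tcf7 among its 10 genes of highest fold, held 145 and 208 cells in Ctrl and 42 and 218 in Tim3-KD mice. Clusters 11 and 19, both with Gzmb among theirs, held 117 and 97 and 93 and 77 cells in Ctrl. The part of this mix in the cytotoxic genes and Havcr2 was not tested.

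NK or ILC1-like cells, 175 and 184, showed the opposite sign in division genes. Of 265 genes 13 (4.91%) were higher and 6 (2.26%) lower, with a median of -0.21. Of 11 genes of mitosis and replication 6 were higher and 0 lower (median 1.11). H2ax, a histone that marks DNA damage, was found in 2.86% and 9.78% of cells, Dut, which clears dUTP, in 2.29% and 9.24% and Birc5, survivin, in 2.29% and 5.43%, with intervals that overlapped for all 3 genes. Tnfrsf9, the costimulatory receptor 4-1BB, was at 13.7% and 4.89%, Tnfrsf18, the receptor GITR, at 17.7% and 9.78% and Bcl2a1b, which protects from cell death, at 25.1% and 14.7%. Gzmb was at 78.9% and 70.7% and Prf1 at 76.0% and 75.5%.

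Cluster 14, which had no class name, held 142 and 171 cells. Of its 475 genes 13 (2.74%) were higher and 11 (2.32%) lower, with a median of -0.03. Cxcl10 and Cxcl9 were among the 5 genes of highest ratio, with Cxcl10 at 18 and 175 UMIs but a UMI after thinning in 1.41% and 2.92% of cells. In Tim3-KD mice Cxcl10 went the other way in this cluster, at 75 and 6 UMIs (log2 ratio -4.04). C1qa was also among them, at 16 and 90 UMIs. Clec4a3, Ms4a4c, Clec4b1, Ms4a6d and Ndrg1 had the lowest ratios. Havcr2 was found in 14.8% (9.39% to 21.7%) and 12.3% (7.77% to 18.2%) of these cells, and in 9.35% and 7.27% of lesion macrophage-like cells.

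A few genes were higher in macrometastasis in many of the 8 classes compared. Gch1, which makes the cofactor tetrahydrobiopterin, was higher in 5 of the 5 classes where it was measured, Imp3, of ribosome assembly, in 5 of 6 and the mitochondrial gene Chchd10 in 4 of 5. Imp3 was found in 2.76% and 8.32% of T-like cells, 1.69% and 6.34% of B-like cells and 2.55% and 6.60% of Kupffer-like cells. Dedd2 and Arrdc4 were higher in 4 of 6 and Sdhaf1 in 4 of 5. Trem2, Clec4a3, Gm5150 and 1600014C10Rik were lower in 3 classes each. Trem2 was at 12.4% and 4.98% of Kupffer-like cells and 13.4% and 3.85% of monocyte-like cells. In B-like cells of Tim3-KD mice the log2 ratios of Imp3, Sdhaf1 and Dedd2 were -0.21, -0.0071 and 0.04, on few UMIs in micrometastasis. In T-like cells of those mice Sdhaf1, Chchd10 and Arrdc4 were at 1.34, 2.06 and 2.49, and in cluster 14 Imp3 was at 1.31.

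The stress response genes Hspa1a and Jun were found in more cells of macrometastasis. Hspa1a, a chaperone of the HSP70 family, was found in 6.35% of all cells of micrometastasis (5.69% to 7.05%) and 17.3% of macrometastasis (16.2% to 18.3%), and Jun in 25.3% and 42.6%. Of 24 immediate early and stress genes 7 were higher and 0 lower over whole libraries (median 0.57, near that of all genes), and 1 was higher at the micrometastasis composition (median 0.14). By class, Hspa1a was at 33.2% and 58.8% of Kupffer-like, 11.4% and 23.1% of monocyte-like, 1.21% and 6.37% of mature neutrophil-like and 3.08% and 6.34% of B-like cells. It was past 2-fold in CPM in 4 of 7 classes. Jun was past 2-fold in 3 of 8 classes and above 0 in 8 of 8. The stress list as a whole differed between classes. It had 8 of 23 genes higher and 0 lower in monocyte-like cells, 4 of 22 higher and 0 lower in mature neutrophil-like cells, where 22.6% of all genes were higher, 4 of 22 higher and 1 lower in B-like cells and 6 of 23 higher and 6 lower in lesion macrophage-like cells. None was higher among 22 genes in Kupffer-like, 23 in cluster 14, 22 in T-like (1 lower) and 16 in NK or ILC1-like cells, with medians of 0.32, 0.24, -0.25 and -0.22. In Tim3-KD mice Hspa1a was at 7.51% and 12.5% of all cells. Within classes of that pair, 14 of the 22 genes were higher and 0 lower in mature neutrophil-like cells (median 1.20), but in Kupffer-like cells 0 were higher and 9 lower (median -0.87), in cluster 14 0 and 6 (median -0.56) and in B-like cells 1 and 4 (median -0.13). Hspa1a in B-like cells had 126 and 443 UMIs in Ctrl but 89 and 124 in Tim3-KD mice, where micrometastasis held fewer of these cells, with log2 ratios of 2.03 and -2.65.

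Hepatocyte genes were found in immune cells, more in macrometastasis. Of 7 hepatocyte genes 4 were higher and 0 lower (median 1.59), and at the micrometastasis composition 3 were higher (median 0.17). Alb, albumin, was found in 2.12% of all cells (1.74% to 2.55%) and 10.9% (10.1% to 11.8%), Fgb, fibrinogen beta, in 0.470% and 2.32% and Apoa1, the main protein of HDL, in 0.862% and 2.38%. In B-like cells, which do not make albumin, Alb was at 0.154% (0.00390% to 0.855%) and 2.17% (1.16% to 3.68%). It was at 1.04% of T-like, 10.7% of mature neutrophil-like, 21.4% of Kupffer-like and 32.3% of lesion macrophage-like cells of macrometastasis, so that the share differed between classes beyond counting error. In Tim3-KD mice Alb was at 3.70% and 6.94% of all cells. The source of this RNA was not tested.

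In Tim3-KD mice the same contrast gave 692 of 1762 genes higher (39.3%) and 29 lower (1.65%), with a trimmed mean log2 ratio of 0.82 against 0.54 in Ctrl. Of the 385 genes higher in Ctrl, 310 were higher and 0 lower there, and of the 70 lower in Ctrl, 22 were lower and 4 higher. Kupffer cell genes were higher in 29 of 31, endothelial genes in 19 of 22, and azurophil genes lower in 5 of 10. All 18 B cell genes were higher there (median 3.11), where B-like cells were at 1.36% of micrometastasis and 9.41% of macrometastasis. Of 19 monocyte genes 4 were higher and 1 lower, unlike the Ctrl pair. Class II genes were higher in 8 of 8 (median 1.78).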

How the data were processed

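CD45+ liver cells were profiled in 6 libraries, of which the Ctrl micrometastasis and Ctrl macrometastasis libraries were compared. The authors trimmed reads (Trim Galore 0.4.3), mapped them (STAR 2.7.7a) to GRCm38 with Ensembl genes, counted exonic and intronic UMIs, kept cells of over 1000 and under 500000 UMIs, over 1000 genes and under 20% mitochondrial reads, and removed doublets with scrublet (score 0.15). The matrices the authors deposited hold scores: variable genes, scaled per site over both tumour lines and capped at 10. Micrometastasis and macrometastasis were scaled separately, so the scores themselves were not compared.

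Instead of raw counts, which the tests had been designed for, UMIs were recovered from the scores through the line on which the cells without a UMI of a gene lie. The share of recovered values no further than 0.05 from a whole number was 99.9998% (micrometastasis) and 99.9969% (macrometastasis), and 0.160% and 0.153% of detected values were at the cap and are lower bounds. Totals cover all genes of a cell. On data simulated for the micrometastasis matrix alone (2669 genes, 10248 cells), 4-fold changes between its Ctrl and Tim3-KD libraries came back as 4.03. Recovery across separately scaled matrices was not simulated, and results for 2-fold changes are not given here.

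Cells of all 6 libraries were clustered with scanpy 1.11.5 (30 components, 15 neighbours, Leiden resolution 1, leidenalg 0.10.2). A cluster was named, as X-like, from its markers among the 10 genes of highest fold, with at least 3 markers detected. These thresholds were set after the clustering was seen. No further doublets were removed. Genes were compared as summed UMIs per 1000000 with 0.5 added to each sum, as shares of cells thinned to 1500 UMIs, within classes of at least 100 cells per library, and at the micrometastasis class composition. Shares of a class and of a cluster within it came from separate random draws. A call means at least 2-fold with at least 100 UMIs. A count of 3 UMIs was 0.0536 and 0.0690 CPM. Analyses used Python 3.11.15, numpy 2.4.6, pandas 2.3.3 and scipy 1.17.1.

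Gene lists, members and tests were chosen with earlier results of these data known. Genes were named by rule: the 4 of largest change in each list, the 5 highest and 5 lowest in each class, the 10 highest and 10 lowest over whole libraries, and genes of the study's subject. Others given (such as Isg15, Ifi27l2a, Slfn1, Ifit1, Ccl3, Tnf, Timd4, Axl, H2-Aa, Hmox1, Gch1, Chchd10, Trem2 and Igkc) were chosen after their values were seen. Promoters came from RefSeq tables of GRCm38.p6, where Iigp1 and Ifi27l2a were not used. Other scalings, filters and clusterings were tried.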

Additional observations from a re-analysis of the deposited data

Results flagged for a closer look

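A gene or class was picked out here where it was past 2-fold, or beyond its interval, in one direction between the Ctrl libraries and in the other between the Tim3-KD libraries. At least 100 UMIs were required in each pair. Within classes, the named genes were examined in classes of at least 100 cells in every library of both pairs, which left out B-like cells, NK or ILC1-like cells and cluster 14. The difference between the pairs was not tested, since each group was 1 library. Values are log2 ratios of macrometastasis over micrometastasis.

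Over whole libraries G0s2, an inhibitor of fat breakdown, was at -1.10 in Ctrl and 1.30 in Tim3-KD mice, the histone gene H2ac20 at -1.37 and 1.25, Rufy4 at -1.01 and 1.04 and Vpreb3 at -1.01 and 3.51. The share of lesion macrophage-like cells was lower by 3.69 points in Ctrl (-3.69) and higher by 1.67 points in Tim3-KD mice. Cluster 18 of this class was higher in both pairs. Cluster 13 was at 8.05% and 0.692% in Ctrl and at 0.914% and 0.854% in Tim3-KD mice.

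In Kupffer-like cells Mertk was at 1.29 in Ctrl and -1.47 in Tim3-KD mice, Csf1 at 1.81 and -1.73, Slamf1 at 1.80 and -1.04, Saa3 at 1.04 and -2.53, Alb at 1.17 and -1.55 and Mmp12 at -2.25 and 1.12. Cluster 21 held 61 and 65 of these cells in Ctrl and 4 and 182 in Tim3-KD mice, and its part was not tested. In lesion macrophage-like cells Mertk was at 2.60 and -1.03, Folr2, a folate receptor of macrophages, at 2.86 and -3.69 and Marco at 4.55 and -1.99. The clusters of this class differed between the pairs. In Tim3-KD mice cluster 18 held 94 of the 141 and 196 of the 243 cells. It held 6 of the 417 and 186 of the 220 in Ctrl, and its part in these signs was not tested. In mature neutrophil-like cells Clec4a3 was at -1.38 and 1.13, and in monocyte-like cells Cstdc4, a stefin A gene, was at 2.34 and -1.01.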

How the results depend on the processing

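No paired analysis was possible because the labels give no replicate numbers and each group was 1 library, which also left no replicate to leave out. Over whole libraries, trimmed-mean scaling gave 166 genes higher and 155 lower, the micrometastasis class composition 63 and 27 (41 higher when weighted by the 26 clusters), leaving out neutrophil-like cells 113 lower, and shares without thinning 153 higher. Leaving out cluster 8 with the neutrophil-like cells moved neither the higher nor the lower count by over 1.5 times. At the micrometastasis composition 66 named genes were no longer past 2-fold and 6 newly were, and Icos (-0.0054), Mpo (0.038), Slc40a1 (-0.067) and Tnfsf10 (-0.083) changed sign on the log2 scale. Class differences were also taken without mature neutrophil-like and precursor-like cells, with cluster 8 kept. They were then 17.03 points for Kupffer-like, 8.54 for endothelial-like, -14.7 for monocyte-like, -5.59 for lesion macrophage-like, -6.18 for cluster 8 and -0.831 for basophil or mast-like cells. At Leiden resolution 2 they were -8.29 for lesion macrophage-like and -7.44 for monocyte-like cells, and at 0.5 they were 0.435 for mature neutrophil-like, -15.7 for monocyte-like and -4.81 for precursor-like cells. No cluster was named lesion macrophage-like at 0.5. At 2 a cluster with Pf4 as its gene of highest fold, of 6 and 124 Ctrl cells, had no class name. Without cells under 3000 UMIs the B-like difference was 1.34 points. Within classes, trimmed-mean scaling gave 102 higher and 149 lower in mature neutrophil-like, 69 and 89 in monocyte-like and 11 higher in Kupffer-like cells, and 2 lower in T-like and 2 lower in NK or ILC1-like cells. The mean over cells gave 19 lower in cluster 14, and cluster 3 alone gave 124 higher in mature neutrophil-like cells. In Tim3-KD mice trimmed-mean scaling gave 270 higher and 141 lower. The results for cluster 3, for leaving out cluster 8, for the 26 clusters and for scaling in Tim3-KD mice were added after the data were seen. Except for the scalings, whose construction sets the average to no change, the cause was not tested. Thinning to 1000 or 3000 UMIs moved no count of shares by over 1.5 times. Values of rare classes rest on few cells, such as 6 basophil or mast-like cells in macrometastasis.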
